A study of Mus musculus with 6 samples.

Results

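RNA-seq of Achilles tendon from a Dicer cKO mouse was compared with that of a ScxHt mouse, 2 animals that both carry the ScxCre knock-in allele and differ in their Dicer alleles. The comparison took in every feature whose mean normalized count over both libraries was above 50, which left 13555 of the 54189 features in the deposited count table. A feature below 50 in one library could thus pass through the other library alone, where it was higher. The study made RNA-seq and small RNA-seq libraries from Achilles tendon of 3 genotypes at 4 weeks of age. ScxHt was ScxCre/+ Dicer +/+, Dicer cKO was ScxCre/+ Dicer f/f, and Control was Dicer f/f without Cre. Every genotype had 1 RNA-seq library, made from 1 mouse. Cre is driven by the Scx promoter, so recombination follows cells that express Scx, and the knock-in takes the place of one Scx allele in both ScxHt and Dicer cKO. ScxHt therefore shares the lost Scx allele with Dicer cKO, which Control does not, and the comparison addresses what is seen with floxed against intact Dicer alleles on the same Cre background. The genotype, the mouse, the dissection and the library cannot be told apart with 1 library a side, so no test across mice was made and no p-value is given.

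Dicer cuts precursor hairpins into mature microRNAs (miRNAs), which bind messenger RNAs with complementary 3' UTR sites and lower their stability or translation. Tendon is built by fibroblasts that secrete fibril-forming collagens together with small proteoglycans and glycoproteins that set the size and spacing of the fibrils. Scx is the transcription factor that marks this lineage, and the Achilles tendon is continuous with muscle at one end and inserts into bone at the other.

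The deposited counts summed over all features to 15769301 for ScxHt, 14959399 for Dicer cKO and 16244232 for Control. Shares of all reads below are shares of these sums, which a read in overlapping features or repeated lines can enter more than once. Counts in the text are reads as deposited, and a ratio is the count in Dicer cKO over that in ScxHt after each was divided by the size factor of its library, with the exact 95% counting interval in parentheses. The interval covers counting error only and not the difference between mice, and reads without molecular identifiers are not independent molecules. A feature was called higher above a ratio of 1.67 and lower below 0.60, the limits of the study's methods. By this rule 1039 features (7.67%) were higher and 770 (5.68%) were lower in Dicer cKO, and 11746 (86.7%) lay between. The whole interval was above 1 for 3359 features (24.8%) and below 1 for 4141 (30.5%). The median log2 ratio over all analysed features was -0.03, the middle 50% lay from -0.29 to 0.24, and 90% from -0.77 to 0.94. These shares and this median are the background for each gene list below. With total counts in place of the size factors, 905 features were higher and 966 lower, so the balance of the directions depends on the scaling.

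The limits cut through a continuous distribution. Taf4b at 1.67 was the lowest higher ratio and Lgals4 the highest below the limit, and their ratios differed in the fourth digit. Serpinh1 was the highest lower ratio at 0.599998. The whole counting interval lay above the upper limit in 572 cases and below the lower limit in 300.

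**Figure D1:**
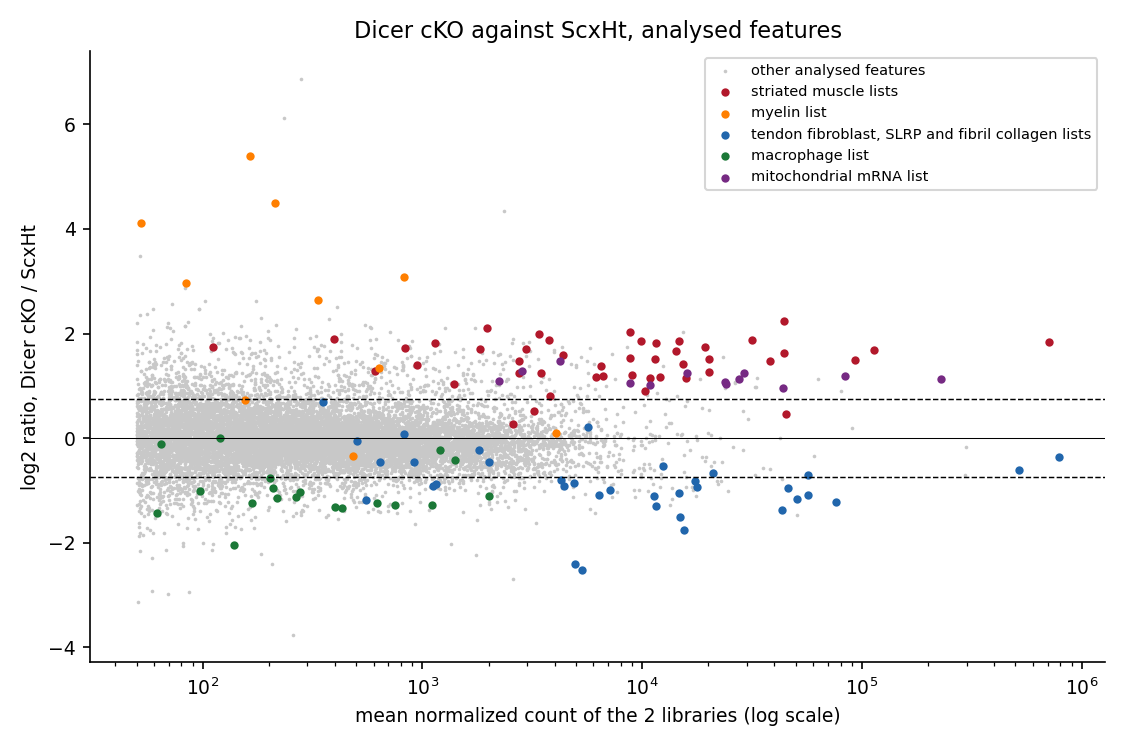
Each point is 1 analysed feature, with its mean normalized count on a log axis and its log2 ratio of Dicer cKO over ScxHt, and the dashed lines are the limits of 1.67 and 0.60. Striated muscle, myelin and mitochondrial genes lie mostly above the upper line, and tendon fibroblast, proteoglycan and macrophage genes mostly below 0.

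Gene lists were used to describe the result, 47 lists with 898 genes. Some genes belong to several lists, such as Spp1 among tendon fibroblast markers, matricellular proteins and bone genes, so the lists are not independent. The lists took in 137 genes called higher and 117 called lower, so 901 higher and 653 lower features belong to no list. Some members had under 50 normalized counts in the library where they were lower and passed the minimum through the other alone. Among them are Col26a1, Sdf2l1, Acvr2b, Cdh15, Cox6a2, Ciita, Rsad2, Prim1, Gadd45b and Rps28. The calls and medians of their lists rest in part on this admission. All 14 tendon fibroblast markers were above the minimum, as the labelled tissue calls for, and muscle genes common to all fibre types held 6.40% of all reads in Control, 3.35% in ScxHt and 10.7% in Dicer cKO. The libraries thus held muscle RNA in different amounts, and its part in the other results was not tested. Xist was counted at 20294 reads in ScxHt, 19634 in Dicer cKO and 19886 in Control, and the Y-linked genes Ddx3y, Eif2s3y, Kdm5d and Uty had at most 1 read in ScxHt and 0 in Dicer cKO, so the libraries did not differ by these sex-linked genes.

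**Figure D2:**
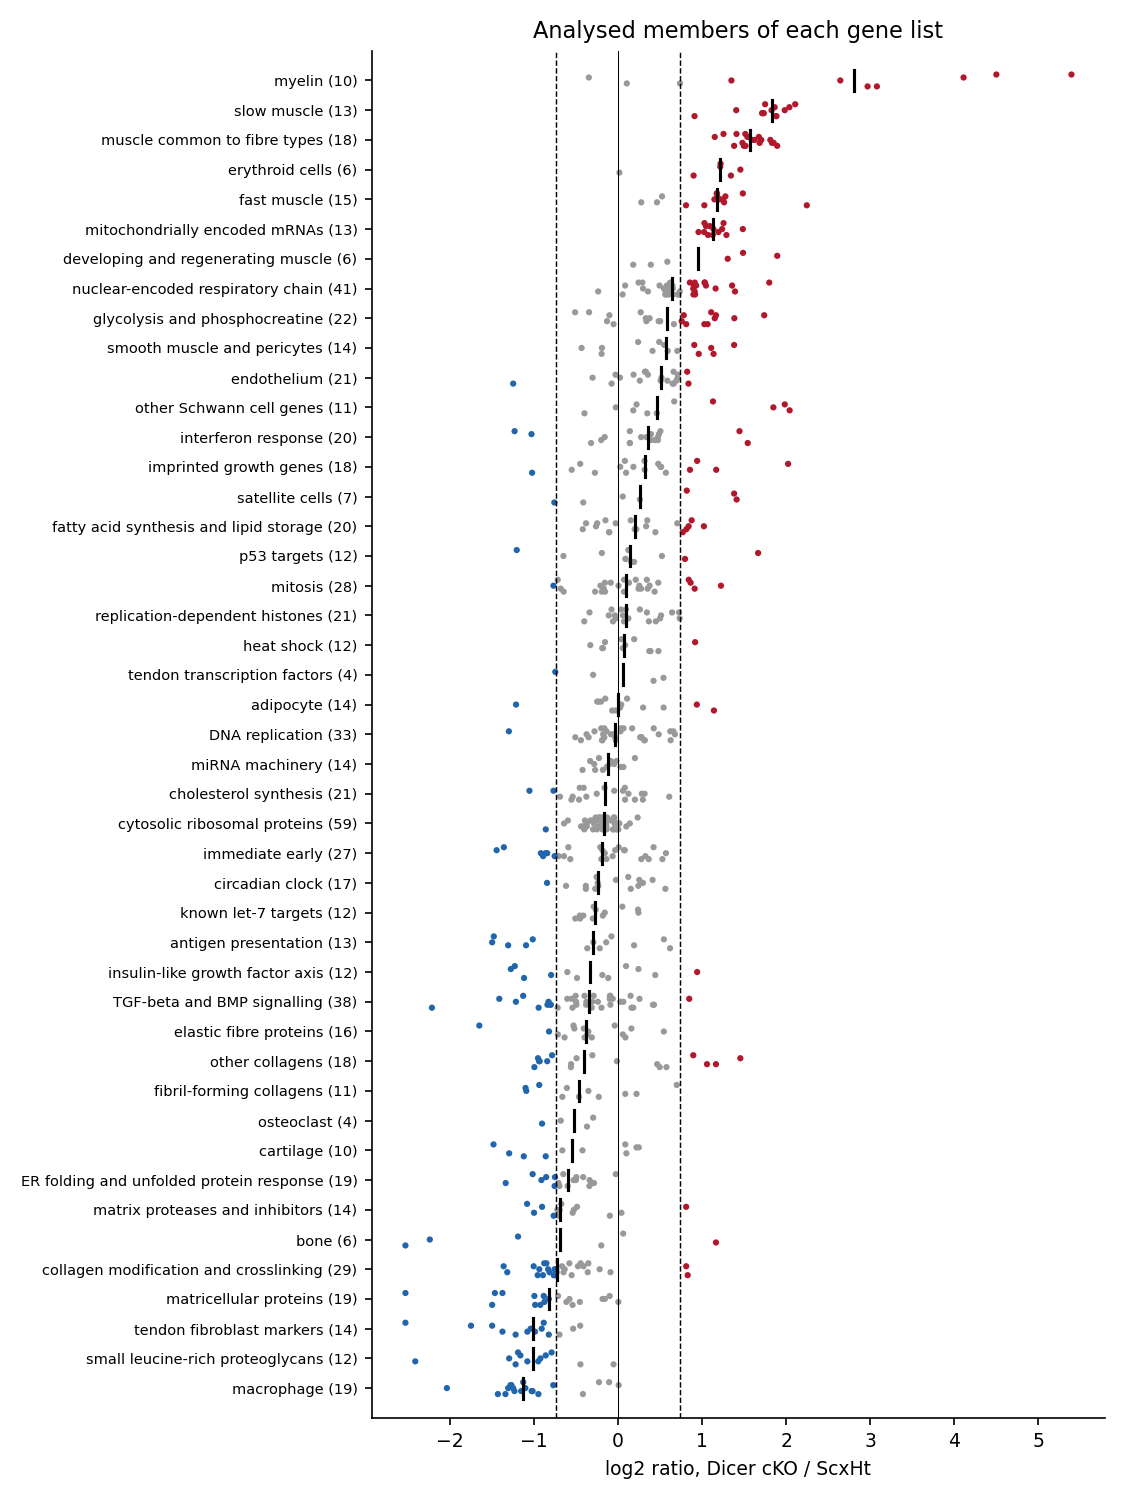
Each point is 1 analysed member of a gene list (number of analysed members in parentheses) at its log2 ratio of Dicer cKO over ScxHt. Black bars are list medians, dashed lines the limits of 1.67 and 0.60, red points are higher and blue points lower. The median of the myelin list is 2.81 and that of the bone list is -0.70.

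Dicer1 (chr12:104687742-104751952, GRCm38) was counted at 2025 reads in ScxHt and 1621 in Dicer cKO, beside 1919 in Control. The ratio was 0.882 (0.826 to 0.942), between the limits. The count covers all exons of the gene, so it does not report on the floxed part alone. Cells of the tendon that do not express Scx would keep the gene, and their part in this ratio was not tested. By real-time PCR, the paper reports significantly lower Dicer in Achilles tendon of Dicer cKO than of Control mice. For the limited size of the loss it proposes inefficient and mosaic recombination by Cre, which was not tested here either. Scx (chr15:76457452-76459458) was counted at 686 reads in ScxHt and 371 in Dicer cKO, beside 1055 in Control. Its ratio of 0.596 (0.524 to 0.677) was just below the lower limit, with an interval that crosses it. The order of the libraries for Scx was Control, ScxHt, Dicer cKO, although ScxHt and Dicer cKO carry the same Scx alleles.

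The 14 analysed genes of miRNA processing and silencing held no call in either direction, with ratios of 0.746 to 1.15 and a median log2 of -0.12. Ago1, an Argonaute protein that carries miRNAs, was lowest with 771 reads in ScxHt and 522 in Dicer cKO, beside 833 in Control, a ratio of 0.746 (0.666 to 0.835). Tarbp2, a Dicer partner, was highest with 141 reads in ScxHt and 147 in Dicer cKO, beside 116 in Control, and the interval of its ratio of 1.15 (0.905 to 1.46) includes 1. Tnrc6a, a silencing adaptor with the highest count of the list, had 3372 reads in ScxHt and 2533 in Dicer cKO, beside 2641 in Control, a ratio of 0.828 (0.786 to 0.872).

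A mature miRNA reads its targets through its seed, bases 2 to 8 from the 5' end. The mature sequences of the miRNA families whose 3' UTR matches are described next are shown for the families the text turns on, from RefSeq (GRCm38.p6), with the seed in capitals.
let-7a-5p: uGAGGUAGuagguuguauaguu
miR-206-3p (same seed as miR-1a-3p): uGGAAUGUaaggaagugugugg
miR-133b-3p: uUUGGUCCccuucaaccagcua
miR-338-3p: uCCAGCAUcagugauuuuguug
miR-29a-3p: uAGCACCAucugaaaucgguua
miR-23a-3p: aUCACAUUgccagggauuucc
The let-7 seed is matched in a messenger RNA by CTACCTC, or by TACCTCA where base 8 is unpaired and an A faces base 1. The seed of miR-206 and miR-1 is matched by ACATTCC or CATTCCA, and the miR-133 seed by GGACCAA or GACCAAA.

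The longest annotated 3' UTR of 11007 analysed genes (GENCODE, GRCm38, matched by symbol) was searched on the sense strand for these 7-base matches of 25 families. Among all these genes 7.46% were higher and 5.99% lower, and the median log2 ratio was -0.04. The median log2 ratio of genes with a match minus that of genes without one lay between -0.04 and 0.02 over the 25 families, positive in 12 and negative in 13. Genes with a match were higher in 6.14% to 8.33% of cases and lower in 3.62% to 5.63%. By tertiles of 3' UTR length, the differences ran from -0.04 to 0.02 among the longest UTRs, from -0.05 to 0.06 among the middle ones and from -0.12 to 0.14 among the shortest. In the shortest tertile, where matches are fewest, the difference was 0.14 for miR-99a (21 genes with a match), -0.12 for miR-206 and miR-1 (211 genes), -0.10 for miR-133 (172 genes) and -0.08 for miR-127 (30 genes).

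The let-7 match was present in 1957 genes (17.8%), of which 160 were higher and 95 lower. Their median log2 ratio was -0.03 and that of genes without the match -0.05. In the small RNA-seq libraries of the same samples, let-7 hairpins summed to 2912693 reads in ScxHt and 2432592 in Dicer cKO, a ratio of 0.835. The Control sum was 3554039 reads. The lowest differences belonged to the muscle miRNAs miR-206 and miR-1 (2236 genes, -0.08 with and -0.03 without a match) and miR-133 (1794 genes, -0.08 and -0.04), followed by miR-338 (2819 genes, -0.06 and -0.04). Hairpins with the seed of miR-206 in the small RNA table had 134734 reads in ScxHt and 408434 in Dicer cKO, beside 310922 in Control. Those with the miR-338 seed had 335 and 892, beside 354 in Control. For miR-29, whose known targets are collagens, 2282 genes held the match, with a median of -0.04 against -0.04. The highest difference was that of miR-23, -0.03 against -0.05 over 2932 genes with a match. Genes with a match had longer 3' UTRs, a median of 2517 bases for let-7 against 1305 bases for all genes.

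**Figure D3:**
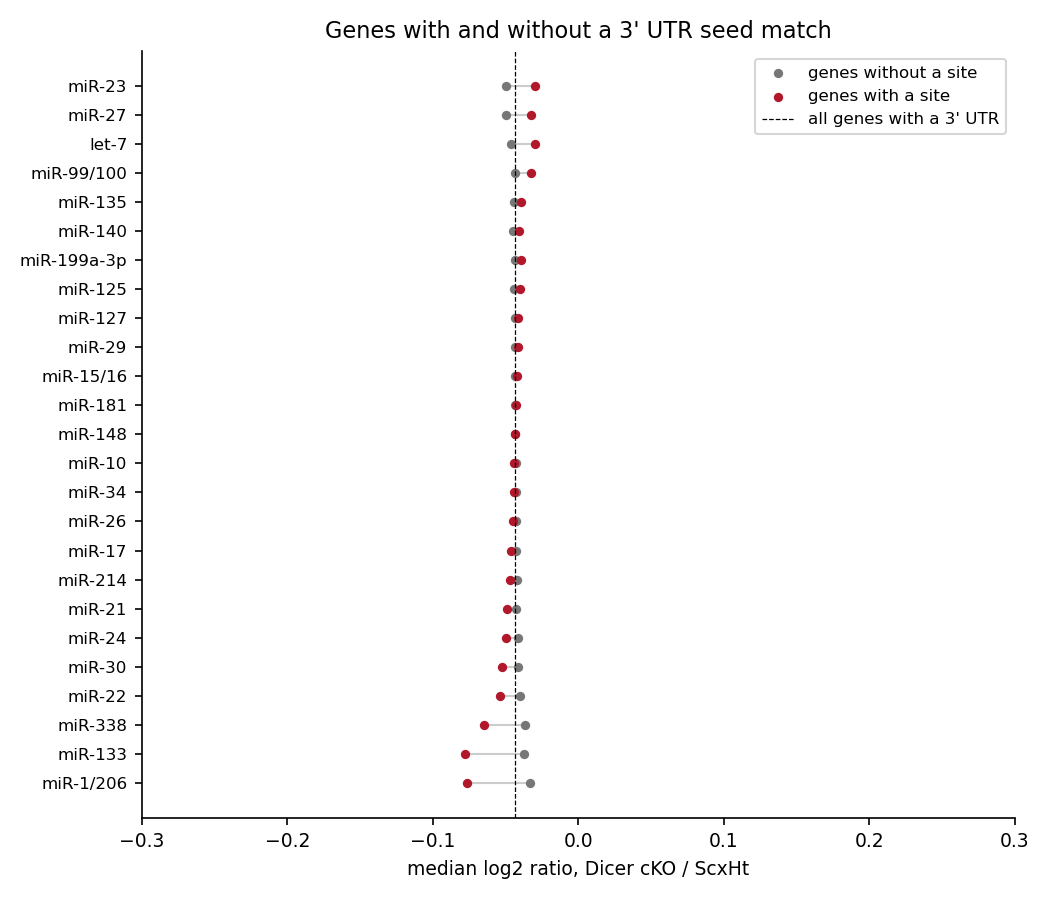
Median log2 ratio of Dicer cKO over ScxHt for genes with (red) and without (grey) a 7-base seed match in the longest 3' UTR, for each of 25 miRNA families. The dashed line is the median of all 11007 genes. The differences lie between -0.04 and 0.02, with miR-206 and miR-1, miR-133 and miR-338 lowest.

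The 12 analysed genes of a list of known let-7 targets held no higher and no lower gene, with ratios of 0.703 to 1.18 and a median log2 of -0.28. The targets best known from early development were scarce in this tissue, with Hmga2 at 7 reads in ScxHt and 10 in Dicer cKO, Lin28b at 0 in both, and Igf2bp1 at 1 and 0. Ccnd2, a cyclin, had 6088 reads in ScxHt and 4518 in Dicer cKO, beside 5977 in Control, a ratio of 0.818 (0.787 to 0.850). Plagl2 had the lowest ratio of the list, 0.703 (0.557 to 0.884).

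Tendon fibroblast markers were lower in Dicer cKO as a list. Of 14 analysed markers, 11 were lower and none was higher, all 14 intervals lay below 1, and the median log2 ratio was -1.01 beside -0.03 for all features. In bulk RNA, fewer cells of a type and less RNA per cell cannot be told apart. Spp1, the matrix phosphoprotein osteopontin (chr5:104435118-104441050), had 9579 reads in ScxHt and 1506 in Dicer cKO, beside 5412 in Control. Its ratio of 0.173 (0.164 to 0.183) was the lowest of the list. Fmod, the proteoglycan fibromodulin that limits fibril growth, had 111544 reads in ScxHt and 43491 in Dicer cKO, beside 99254 in Control, a ratio of 0.430 (0.425 to 0.434). Angptl7, a secreted glycoprotein, had 73738 reads in ScxHt and 41268 in Dicer cKO, beside 55138 in Control. Its ratio of 0.617 (0.609 to 0.624) was just above the lower limit. The markers not called lower were Angptl7, the tendon membrane protein tenomodulin, Tnmd, at 0.690 (0.673 to 0.708) and the progenitor marker Tppp3 at 0.732 (0.654 to 0.819). In the ratios that involve Control, the median of these markers was -0.62 for Dicer cKO over Control and 0.45 for ScxHt over Control. ScxHt thus lay above Control, and Dicer cKO below both.

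Of the tendon transcription factors, 4 were analysed and Scx was the only call. Mkx, a homeobox factor of tendon, had 2492 reads in ScxHt and 1841 in Dicer cKO, beside 2094 in Control, a ratio of 0.814 (0.766 to 0.865). Egr1, an early response factor that also acts in tendon, had 635 reads in ScxHt and 772 in Dicer cKO, beside 2217 in Control. Its ratio was 1.34 (1.20 to 1.49), and Control was above both other libraries. Eya2, a transcriptional coactivator, stood at 72 and 95 reads, a ratio of 1.45 (1.06 to 2.003). The list median of 0.06 changed sign with total counts and with a higher minimum count.

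Fibril-forming collagens lost the most reads. Col1a2 (chr6:4504814-4541544), one chain of type I collagen, had 658387 reads in ScxHt and 391822 in Dicer cKO, beside 708695 in Control, and Col1a1 (chr11:94936224-94953042), the other chain, had 925996 reads in ScxHt and 658168 in Dicer cKO, beside 1261322 in Control. Their ratios were 0.656 (0.653 to 0.658) and 0.783 (0.781 to 0.786), both between the limits although their intervals are narrow. Type I collagen chains were the highest in Control, and their share of all reads was 7.76% in Control, 5.87% in ScxHt and 4.40% in Dicer cKO for Col1a1. The lower collagens were Col5a1, Col3a1 and Col5a2, which form or start thinner fibrils. Col5a1 had 16233 reads in ScxHt and 6869 in Dicer cKO, beside 12893 in Control, and the lowest ratio of the list, 0.466 (0.453 to 0.480). Col3a1 had 81063 reads in ScxHt and 34511 in Dicer cKO, beside 56697 in Control, a ratio of 0.469 (0.463 to 0.475). The highest was Col24a1 at 282 and 415 reads, a ratio of 1.62 (1.39 to 1.89). Over the 11 analysed fibril-forming collagens 3 were lower, none was higher, and the median log2 was -0.47.

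The other collagens differed among themselves. Of 18 analysed, 4 were higher and 6 lower, with a median log2 of -0.40. All of the lower ones but Col14a1 and Col8a2 were chains of type VI collagen, the beaded filament around tendon cells. Col6a3 had 57346 reads in ScxHt and 30196 in Dicer cKO, beside 44205 in Control, a ratio of 0.580 (0.572 to 0.588), and Col6a6 had the lowest ratio, 0.502 (0.431 to 0.582). Col12a1, a fibril-associated collagen, lay between the limits at 0.678 (0.668 to 0.688). The higher ones were Col13a1, Col22a1, Col26a1 and Col28a1, of which Col22a1 is known from muscle-tendon junctions and had 1071 reads in ScxHt and 2023 in Dicer cKO, beside 999 in Control, a ratio of 2.08 (1.93 to 2.24). Col26a1 had the highest ratio, 2.74 (1.85 to 4.13), at 37 and 92 reads. Col13a1 had 59 reads in ScxHt and 120 in Dicer cKO, beside 178 in Control, so Control was the highest.

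Small leucine-rich proteoglycans, which bind collagen fibrils and set their diameter, were lower in 10 of 12 cases and higher in none, with a median log2 of -1.01. Of the lower ones, Fmod and Kera are also counted among the tendon fibroblast markers. Prelp (chr1:133910304-133921414), which anchors basement membrane to connective tissue, had 8716 reads in ScxHt and 1486 in Dicer cKO, beside 9313 in Control. Its ratio of 0.188 (0.178 to 0.198) was the lowest of the list, and Control was close to ScxHt. Decorin, Dcn, had 73864 reads in ScxHt and 29955 in Dicer cKO, beside 57347 in Control, a ratio of 0.447 (0.441 to 0.453). Biglycan, Bgn, had 63782 reads in ScxHt and 29965 in Dicer cKO, beside 35556 in Control, a ratio of 0.518 (0.511 to 0.525), with Control below ScxHt and near Dicer cKO. The members not called lower were Aspn at 0.733 (0.688 to 0.781) and Podn at 0.963 (0.850 to 1.09), the second with an interval that includes 1. Summed over the list, these proteoglycans took 1.46% of all reads in Control, 1.91% in ScxHt and 0.833% in Dicer cKO.

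Matricellular proteins, secreted proteins that act between matrix and cells, were lower in 10 of 19 cases and higher in none, with a median log2 of -0.82. Of the lower ones, Thbs2, Thbs4, Comp, Dpt and Spp1 are also counted among the tendon fibroblast markers. Fn1, fibronectin, had 77906 reads in ScxHt and 25605 in Dicer cKO, beside 52621 in Control, a ratio of 0.362 (0.357 to 0.367). Thbs4, a thrombospondin of tendon and muscle junctions, had 65404 reads in ScxHt and 22881 in Dicer cKO, beside 47181 in Control, a ratio of 0.385 (0.380 to 0.391). Sparc, a collagen-binding glycoprotein, had 385347 reads in ScxHt and 213214 in Dicer cKO, beside 327276 in Control. It lost the most reads after the type I collagen chains, and its ratio of 0.610 (0.606 to 0.613) was above the lower limit with its whole interval. Matn4 had the highest ratio of the list, 1.002 (0.810 to 1.24).

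Elastic fibre proteins were mostly between the limits, 2 of 16 lower and none higher, with a median log2 of -0.38. The lower ones were Fbln1, which had 1470 reads in ScxHt and 425 in Dicer cKO, beside 924 in Control, and a ratio of 0.319 (0.285 to 0.355), and the microfibril protein Fbn1 with a ratio of 0.566 (0.555 to 0.577). Elastin, Eln, had the highest ratio, 1.46 (1.36 to 1.56), from 1419 and 1878 reads.

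Collagen modification and crosslinking enzymes were lower in 14 and higher in 2 of 29 cases, with a median log2 of -0.73. The lowest was Plod2, which hydroxylates lysines of collagen telopeptides, with 8710 reads in ScxHt and 3077 in Dicer cKO, beside 7183 in Control, and a ratio of 0.389 (0.373 to 0.406). Lysyl oxidase, Lox, had 21890 reads in ScxHt and 10378 in Dicer cKO, beside 19679 in Control, a ratio of 0.522 (0.510 to 0.535), while its relative Loxl2 was at 0.783 (0.767 to 0.798) and the prolyl hydroxylase subunit P4ha1 at 0.779 (0.763 to 0.795). The higher ones were Adamts14, a procollagen protease, at 1.78 (1.41 to 2.24) and the channel Tmem38b at 1.75 (1.53 to 2.01). Of 19 chaperones and unfolded protein genes of the endoplasmic reticulum 6 were lower and none higher, with a median log2 of -0.60. Calreticulin, Calr, had 26748 reads in ScxHt and 14858 in Dicer cKO, beside 17550 in Control, a ratio of 0.612 (0.5998 to 0.624). The lowest was Sdf2l1, 0.396 (0.264 to 0.581), and Ddit3 the highest, 0.981 (0.815 to 1.18). The medians of this list were -0.14 for Dicer cKO over Control and 0.55 for ScxHt over Control, so ScxHt stood above both other libraries.

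Matrix proteases and inhibitors were lower in 4 and higher in 1 of 14 cases. The lower ones were Mmp3, Mmp14, Ctsk and Timp2, and Timp2, an inhibitor of metalloproteinases, had 12815 reads in ScxHt and 5815 in Dicer cKO, beside 11755 in Control, a ratio of 0.49996 (0.485 to 0.516). Timp3, the most counted inhibitor, was at 0.694 (0.681 to 0.708), and Timp4, which is known from muscle and heart, was the higher one at 1.75 (1.53 to 2.01).

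Some cartilage and bone genes were lower. Of 10 analysed cartilage genes, 4 were lower (Acan, Chad, Hapln1 and Sox9). Sox9, the cartilage transcription factor that also marks the tendon insertion, had 400 reads in ScxHt and 130 in Dicer cKO, beside 527 in Control, a ratio of 0.358 (0.292 to 0.437), and the leucine-rich protein Chad had 17282 reads in ScxHt and 6389 in Dicer cKO, beside 16553 in Control, a ratio of 0.407 (0.396 to 0.419). Type II collagen, Col2a1, did not follow, with 837 reads in ScxHt and 806 in Dicer cKO, beside 985 in Control, and a ratio of 1.06 (0.962 to 1.17). Of 6 analysed bone genes, Spp1, Ibsp and Omd were lower and Col13a1 was higher, with a median log2 of -0.70. For Col13a1, Control was above both other libraries. Bone sialoprotein, Ibsp, had 3033 reads in ScxHt and 583 in Dicer cKO, beside 2141 in Control, a ratio of 0.212 (0.193 to 0.231). The markers of mature bone cells Bglap, Mepe and Sost were at 0 in both libraries. Ctsk, a protease of osteoclasts and fibroblasts, was the only lower gene of 4 analysed osteoclast genes, at 0.534 (0.505 to 0.565).

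Signalling by TGF-beta and bone morphogenetic proteins (BMPs), ligands that drive tendon and bone formation, was described by 38 analysed genes, 1 higher and 9 lower, with a median log2 of -0.34. Among ligands, Gdf5, a BMP-like factor of joints and tendon, had 317 reads in ScxHt and 62 in Dicer cKO, beside 152 in Control, and the lowest ratio, 0.215 (0.161 to 0.284). Among receptors, Tgfbr3 had 7791 reads in ScxHt and 3985 in Dicer cKO, beside 8009 in Control, a ratio of 0.564 (0.542 to 0.586). Bmpr2 was at 0.872 (0.838 to 0.907) and Acvr2b was the higher gene at 1.80 (1.18 to 2.77), from 38 and 62 reads. Acvr2b had under 50 normalized counts in ScxHt and passed the minimum through Dicer cKO alone. The BMP target genes Id1, Id2 and Id3, named here after their values were seen, had ratios of 0.376 (0.331 to 0.426), 0.457 (0.397 to 0.526) and 0.519 (0.449 to 0.5997). For all 3 of them ScxHt was the highest library, and Id1 was counted at 974 reads in ScxHt and 332 in Dicer cKO, beside 524 in Control.

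Of 12 analysed genes of the insulin-like growth factor axis 4 were lower and 1 was higher. The ligand Igf1 had 13344 reads in ScxHt and 5579 in Dicer cKO, beside 7984 in Control, a ratio of 0.461 (0.446 to 0.475), and the binding protein Igfbp5 had 19915 reads in ScxHt and 7465 in Dicer cKO, beside 18802 in Control, the lowest ratio at 0.413 (0.402 to 0.424). Igfbp3 and Igfbp6 were the other lower genes. The fetal ligand Igf2 was the higher gene, with 639 reads in ScxHt and 1113 in Dicer cKO, beside 704 in Control, and a ratio of 1.92 (1.74 to 2.12).

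Skeletal muscle genes were higher as a group, and the ScxHt library was the low one for many of them. All 18 analysed genes common to muscle fibre types were higher, with ratios of 2.22 to 3.71 and a median log2 of 1.56. The medians of this list were 0.69 for Dicer cKO over Control and -0.88 for ScxHt over Control. Titin, Ttn (chr2:76703980-76982547), the spring of the sarcomere, had 329060 reads in ScxHt and 1062032 in Dicer cKO, beside 688745 in Control. Its ratio was 3.56 (3.54 to 3.57), and it took 4.24% of reads in Control, 2.09% in ScxHt and 7.10% in Dicer cKO. Nebulin, Neb, had 56880 reads in ScxHt and 165807 in Dicer cKO, beside 105426 in Control, a ratio of 3.21 (3.18 to 3.24). Muscle creatine kinase, Ckm, had the lowest ratio of the list, 2.22 (2.16 to 2.28), and the ubiquitin ligase Trim63 the highest, 3.71 (3.13 to 4.42).

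Slow fibre genes were higher in all 13 cases, with a median log2 of 1.83 and ratios of 1.88 to 4.31. Myh7, the slow myosin heavy chain, had 14202 reads in ScxHt and 47563 in Dicer cKO, beside 40759 in Control, a ratio of 3.69 (3.62 to 3.76). Mybpc1, slow myosin-binding protein, had 9266 reads in ScxHt and 28265 in Dicer cKO, beside 19928 in Control, a ratio of 3.36 (3.28 to 3.44). Myoz2 was highest at 4.31 (3.98 to 4.67) and the calcium pump Atp2a2 lowest at 1.88 (1.83 to 1.93). For Myh7 the Control count lay much nearer to Dicer cKO than to ScxHt, and the list medians were 0.32 for Dicer cKO over Control and -1.38 for ScxHt over Control.

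Fast fibre genes were also mostly higher. Of 15 analysed, 12 were higher and none lower, with a median log2 of 1.18. Myh2, the heavy chain of fast oxidative fibres, had 16146 reads in ScxHt and 69442 in Dicer cKO, beside 36924 in Control, the highest ratio of the muscle lists at 4.74 (4.66 to 4.82). Myh4, the chain of the fastest fibres, had 39836 reads in ScxHt and 49811 in Dicer cKO, beside 8125 in Control, a ratio of 1.38 (1.36 to 1.40). Pvalb, the calcium buffer of fast fibres, had 2460 reads in ScxHt and 2703 in Dicer cKO, beside 731 in Control, a ratio of 1.21 (1.15 to 1.28). For Myh4 and Pvalb the Control library was the low one, whereas for Myh2 it was ScxHt. The list medians were 1.004 for Dicer cKO over Control and -0.15 for ScxHt over Control.

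The myosins of developing muscle Myh3 and Myh8 were higher, with 1149 reads in ScxHt and 3873 in Dicer cKO, beside 2187 in Control for Myh3, a ratio of 3.71 (3.48 to 3.97), and 2.80 (2.63 to 2.98) for Myh8. Together with Myf6 they were the 3 higher genes of 6 analysed, and Ncam1 was lowest at 1.13 (1.05 to 1.23). Of 7 analysed satellite cell genes 3 were higher, Des, Itga7 and Cdh15, which muscle fibres also express in part, and Sdc4 was lower at 0.591 (0.545 to 0.641). Pax7, the defining factor of muscle stem cells, stayed below the minimum with 11 reads in ScxHt and 51 in Dicer cKO, beside 14 in Control.

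Of 22 glycolysis and phosphocreatine genes 10 were higher and none lower, with a median log2 of 0.58. Aldoa, the muscle aldolase, had 10059 reads in ScxHt and 15431 in Dicer cKO, beside 10344 in Control, a ratio of 1.69 (1.65 to 1.73), and the mitochondrial creatine kinase Ckmt2 had the highest ratio, 3.34 (3.18 to 3.51). The widely expressed enolase Eno1 had the lowest, 0.701 (0.659 to 0.747). All 13 mitochondrially encoded mRNAs were higher, with ratios of 1.94 to 2.80 and a median log2 of 1.13. mt-Co1, the catalytic subunit of cytochrome oxidase, had 150203 reads in ScxHt and 299124 in Dicer cKO, beside 259597 in Control, a ratio of 2.19 (2.18 to 2.21). Here too ScxHt was below Control, with list medians of 0.27 for Dicer cKO over Control and -0.79 for ScxHt over Control. Among nuclear respiratory chain genes 15 of 41 were higher and none lower, with a median log2 of 0.65. The highest was Cox6a2, the muscle and heart form of a cytochrome oxidase subunit, at 3.48 (2.32 to 5.35), while the most counted, the ATP synthase subunit Atp5b, had 10479 reads in ScxHt and 15822 in Dicer cKO, beside 11663 in Control, a ratio of 1.66 (1.62 to 1.71). Ndufa1 was the lowest at 0.849 (0.608 to 1.18). Mitochondrial reads and muscle reads moved together over the libraries, and the part of muscle RNA in the mitochondrial values was not tested.

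**Figure D4:**
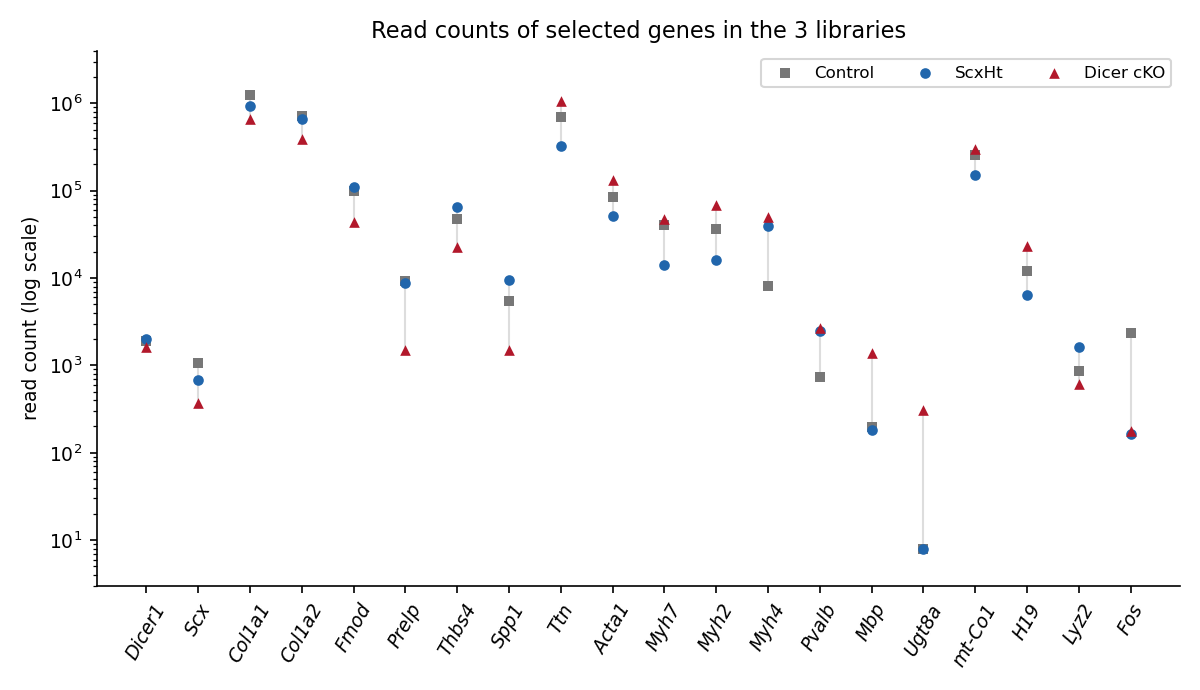
Read counts as deposited, on a log axis, of selected genes in the Control (squares), ScxHt (circles) and Dicer cKO (triangles) libraries, 1 library each. Fmod, Prelp, Thbs4 and Spp1 are lowest in Dicer cKO, Mbp and Ugt8a stand apart in Dicer cKO, and Ttn, Myh7 and mt-Co1 are lowest in ScxHt.

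Myelin genes gave the largest ratios of all lists. Of 10 analysed, 7 were higher and none lower, with a median log2 of 2.81. Ugt8a (chr3:125865271-125938619), the enzyme that makes the myelin lipid galactosylceramide, had 8 reads in ScxHt and 305 in Dicer cKO, beside 8 in Control, a ratio of 42.0 (21.1 to 98.2). Mal had 19 reads in ScxHt and 390 in Dicer cKO, beside 36 in Control, a ratio of 22.6 (14.3 to 38.0). Mbp, myelin basic protein, had 183 reads in ScxHt and 1403 in Dicer cKO, beside 195 in Control, a ratio of 8.45 (7.24 to 9.91). Prx, Cldn19 and Gjc3, proteins of the myelin sheath and its junctions, had ratios of 6.25 (5.03 to 7.83), 7.82 (4.88 to 13.2) and 17.3 (7.64 to 48.2). In each of these 6 genes Dicer cKO stood far above both other libraries. Mal, Gjc3 and Prx had fewer reads in ScxHt than in Control, with 19 and 36 for Mal, 6 and 13 for Gjc3, and 97 and 131 for Prx.

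In 8 more of the 18 listed myelin genes the mean count stayed below the minimum, and all of them but Gjb1 had more reads in Dicer cKO than in ScxHt. Fa2h, which hydroxylates the fatty acids of myelin lipids, had 3 reads in ScxHt and 36 in Dicer cKO, and the myelin-associated glycoprotein Mag had 1 and 18. Ugt8a, Mal, Gjc3 and Cldn19 had under 50 normalized counts in ScxHt and passed the minimum through Dicer cKO alone, so the count and the median of this list rest in part on genes admitted by the library where they are high. Mbp, Prx and Drp2 were above 50 in both libraries, and the ratio of Drp2 was 2.55 (2.25 to 2.88). Of the analysed genes, Cnp, Pmp22 and Tspan2 were not higher. Pmp22, which fibroblasts also express, had the highest count of the list, 4103 reads in ScxHt and 4001 in Dicer cKO, beside 3096 in Control, and a ratio of 1.07 (1.03 to 1.12). Tspan2 was lowest at 0.786 (0.690 to 0.894). Of 11 analysed genes of Schwann cells outside the sheath 4 were higher, Cadm4, Erbb3, Cdh19 and Kcna1, and none was lower, with a median log2 of 0.46. Sema3b, the most counted, had 4294 reads in ScxHt and 2954 in Dicer cKO, beside 3784 in Control. Its ratio of 0.758 (0.723 to 0.795) was the lowest of the list, with its whole interval below 1. Ncam1, next in count, was at 1.13 (1.05 to 1.23). Cadm4, an adhesion protein that joins Schwann cells to axons, had 30 reads in ScxHt and 112 in Dicer cKO, beside 35 in Control, a ratio of 4.11 (2.73 to 6.38). Cadm4 too passed the minimum through Dicer cKO alone, so the count and median of this list rest in part on its admission. S100b, a marker of all Schwann cells, had 53 reads in ScxHt and 56 in Dicer cKO, beside 24 in Control, a ratio of 1.16 (0.785 to 1.73), and Ngfr, a marker of the non-myelinating ones, 0.982 (0.654 to 1.47). Sox10, the defining transcription factor, stayed below the minimum at 16 reads in ScxHt and 69 in Dicer cKO, beside 9 in Control. The amount of nerve in each dissected tendon was not measured, and its part in these values was not tested.

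Endothelial genes leaned to higher ratios, 14 of 21 intervals lying above 1 beside 24.8% of all features, but only Cdh5 and Kdr passed the limit. VE-cadherin, Cdh5, had 1899 reads in ScxHt and 3080 in Dicer cKO, beside 2973 in Control, a ratio of 1.79 (1.69 to 1.89), and Ptprb had 4303 reads in ScxHt and 6170 in Dicer cKO, beside 6347 in Control, a ratio of 1.58 (1.52 to 1.64). For both, Control was near Dicer cKO. Lyve1, shared by lymphatic endothelium and macrophages, was the only lower one at 0.421 (0.371 to 0.477). Of 14 smooth muscle and pericyte genes 5 were higher and none lower, with a median log2 of 0.57. They were Des, Abcc9, Myh11, Lmod1 and Tagln, and skeletal muscle also makes Des. Rgs5 had 3669 reads in ScxHt and 5426 in Dicer cKO, beside 5826 in Control, a ratio of 1.63 (1.56 to 1.70), and Cspg4 was lowest at 0.740 (0.703 to 0.779). Globins and Alas2, 5 of 6 analysed genes of red blood cells, were higher, with Hba-a1 at 1339 reads in ScxHt and 3331 in Dicer cKO, beside 1316 in Control, and a ratio of 2.74 (2.57 to 2.92). The paired globin genes are near-identical copies, so their separate counts are uncertain.

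Macrophage genes were lower in Dicer cKO and higher in ScxHt than in Control. Of 19 analysed, 15 were lower and none was higher, with a median log2 of -1.13, the lowest of the lists with 10 or more analysed genes. The mannose receptor Mrc1 had 2882 reads in ScxHt and 1218 in Dicer cKO, beside 1645 in Control, a ratio of 0.466 (0.435 to 0.498). The complement subunit C1qb had 235 reads in ScxHt and 52 in Dicer cKO, beside 128 in Control, the lowest ratio at 0.244 (0.177 to 0.330). Mertk, which clears dying cells, was at 0.748 (0.694 to 0.807), and Siglec1 highest at 1.005 (0.773 to 1.31). The list medians of -0.39 for Dicer cKO over Control and 0.76 for ScxHt over Control put ScxHt above and Dicer cKO below Control. The common leukocyte marker Ptprc had 688 reads in ScxHt and 343 in Dicer cKO, beside 553 in Control, a ratio of 0.549 (0.481 to 0.626), and the mast cell protease Cpa3 was at 0.490 (0.346 to 0.684). Markers of T cells and neutrophils were near 0, with at most 2 reads of Cd3e, S100a8 or S100a9 in either library.

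Of 13 analysed antigen presentation genes 5 were lower and 9 had their whole interval below 1. The lower ones were the class II genes Ciita, Cd74, H2-Aa, H2-Ab1 and H2-Eb1. Ciita, the activator of the class II genes, had 112 reads in ScxHt and 36 in Dicer cKO, beside 87 in Control, a ratio of 0.354 (0.236 to 0.520). H2-D1 and B2m, the 2 most counted class I genes, were at 0.776 (0.727 to 0.827) and 0.860 (0.823 to 0.898), and the peptide transporter Tap1 was highest at 1.53 (1.20 to 1.96). Interferon response genes held 2 higher and 2 lower genes of 20, with a median log2 of 0.36. Their intervals leaned to higher ratios, 10 above 1 and 3 below 1, beside 24.8% and 30.5% of all features. The list medians were -0.08 for Dicer cKO over Control and -0.39 for ScxHt over Control, so ScxHt was the low library. Rsad2 and Xaf1 were higher, Rsad2 with 42 reads in ScxHt and 111 in Dicer cKO, beside 81 in Control, and a ratio of 2.91 (2.02 to 4.26). Ifi27l2a and Oas2 were lower, Ifi27l2a with a ratio of 0.426 (0.309 to 0.581).

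**Figure D5:**
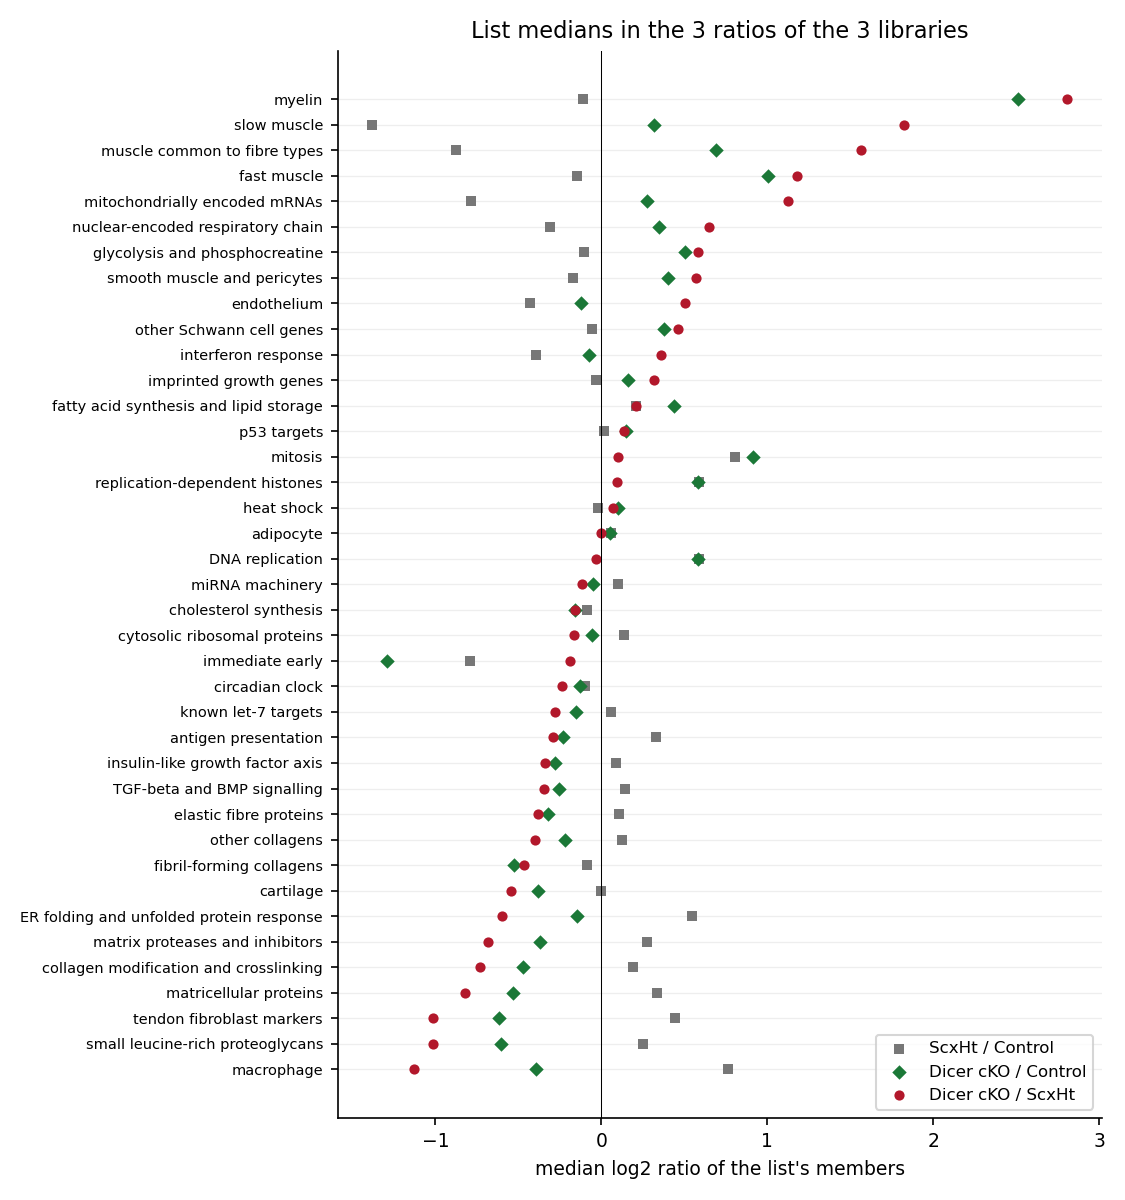
Median log2 ratio of each gene list with 10 or more analysed genes for Dicer cKO over ScxHt (red circles), Dicer cKO over Control (green diamonds) and ScxHt over Control (grey squares). The 3 ratios share their 3 libraries. Slow muscle stands at 1.83 against ScxHt and at 0.32 against Control, and mitosis at 0.10 and 0.92.

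Of the cell division genes, those of replication and histones held few calls between the 2 libraries that carry Cre. Of 28 mitosis genes 4 were higher and 1 lower, beside 7.67% and 5.68% of all features. Their intervals lay above 1 in 10 cases and below 1 in 5, and the median log2 was 0.10. Mki67, the proliferation marker, had 2776 reads in ScxHt and 2756 in Dicer cKO, beside 1520 in Control, a ratio of 1.09 (1.04 to 1.15). Ube2c was highest at 2.34 (1.73 to 3.17) and Plk1 the lower one at 0.587 (0.406 to 0.839). Plk1 had 92 reads in ScxHt and 49 in Dicer cKO, beside 16 in Control. Of 33 replication genes only Prim1 was called, lower at 0.406 (0.282 to 0.576), and the median log2 was -0.03. Prim1 had under 50 normalized counts in Dicer cKO and passed the minimum through ScxHt alone. None of 21 analysed histone genes was called, and the list median of 0.09 changed sign with a minimum count of 200. Against Control both Cre libraries stood higher, with medians of 0.92 for Dicer cKO over Control and 0.81 for ScxHt over Control for mitosis genes.

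Immediate early genes, which respond within minutes to stress and handling, were low as a list in both Cre libraries against Control. The medians were -1.29 for Dicer cKO over Control and -0.79 for ScxHt over Control. Between the 2 Cre libraries the median log2 was -0.19, and 7 of 27 genes were lower and none higher. Klf4 had 1634 reads in ScxHt and 816 in Dicer cKO, beside 2323 in Control, a ratio of 0.550 (0.505 to 0.599). Gadd45b was lowest at 0.367 (0.233 to 0.565), with 87 reads in ScxHt and 29 in Dicer cKO, beside 22 in Control. Unlike the list median, Gadd45b was thus not low against Control, and it passed the minimum through ScxHt alone. Fos, named after its values were seen, had 162 reads in ScxHt and 178 in Dicer cKO, beside 2355 in Control, a ratio of 1.21 (0.973 to 1.51). Heat shock genes held 1 call, Hspb1, higher at 1.89 (1.63 to 2.19), among 12, and clock genes 1, Bhlhe41, lower at 0.557 (0.505 to 0.613), among 17. The direction of the chaperone Hsp90ab1, at 1.03 (1.003 to 1.06), turned with total counts.

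Lipid gene lists differed among themselves. Of 20 genes of fatty acid synthesis and storage 5 were higher and none lower, beside 7.67% and 5.68% of all features, with a median log2 of 0.21. Their intervals lay above 1 in 12 cases and below 1 in 6, beside 24.8% and 30.5% of all features. The higher ones were Elovl6, Gpam, Me1, Acly and Dgat2. Elovl6, a fatty acid elongase, had 504 reads in ScxHt and 928 in Dicer cKO, beside 529 in Control, a ratio of 2.03 (1.82 to 2.27), and the fatty acid synthase Fasn had 12808 reads in ScxHt and 18931 in Dicer cKO, beside 10502 in Control, a ratio of 1.63 (1.59 to 1.67). Adipocyte genes had a median log2 of -0.002, whose sign turned with 2 other scalings. The hormone leptin, Lep, had 782 reads in ScxHt and 306 in Dicer cKO, beside 747 in Control, a ratio of 0.431 (0.377 to 0.493), the only lower one of 14, while the carrier Fabp4 was at 1.02 (0.981 to 1.05). The higher ones were Rbp4 and Slc2a4. Of 21 cholesterol synthesis genes Hsd17b7 and Ebp were lower and none was higher, with a median log2 of -0.16. Cytosolic ribosomal protein genes had a median log2 of -0.16 over 59 genes, with Rps28 as the only call, lower at 0.551 (0.363 to 0.824). Rps28 had under 50 normalized counts in Dicer cKO and passed the minimum through ScxHt alone.

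Imprinted growth genes were led by H19 (chr7:142575529-142578143), a maternally expressed noncoding RNA that is abundant in fetal muscle. It had 6343 reads in ScxHt and 23386 in Dicer cKO, beside 11990 in Control, a ratio of 4.06 (3.95 to 4.18). Igf2, its paternally expressed neighbour, Slc38a4 and Gatm were the other higher genes of 18, and Nnat was the lower one, with 947 reads in ScxHt and 423 in Dicer cKO, beside 875 in Control, and a ratio of 0.492 (0.438 to 0.553). The most counted after H19, Peg3, was at 1.13 (1.10 to 1.17). Of 12 analysed p53 targets Eda2r and Ccng1 were higher and Sesn2 was lower. Eda2r, a receptor of the tumour necrosis factor family, had 166 reads in ScxHt and 478 in Dicer cKO, beside 382 in Control, a ratio of 3.17 (2.65 to 3.81). Ccng1, a cyclin, had 2366 reads in ScxHt and 3729 in Dicer cKO, beside 2921 in Control, a ratio of 1.74 (1.65 to 1.83). Sesn2 was at 0.434 (0.317 to 0.587), with 155 reads in ScxHt and 61 in Dicer cKO, beside 58 in Control. The p53 ligase Mdm2 was at 1.06 (0.966 to 1.17).

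The highest ratios over all features belonged to the annotated genes Gm47283 (chrY:90784738-90816464) and Gm21887 (chrX:170009659-170019281), which were named after their values were seen. Gm47283 had 5 reads in ScxHt and 532 in Dicer cKO, beside 513 in Control, a ratio of 117 (49.9 to 363). Gm21887 had 7 reads in ScxHt and 440 in Dicer cKO, beside 440 in Control, a ratio of 69.3 (33.3 to 173). ScxHt was the library apart for both, and the counts of Control and Dicer cKO were close to one another. Both genes passed the minimum count through Dicer cKO alone. Both lie near the ends of the sex chromosomes, where sequences are repeated, so the counts of each are uncertain.

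Outside the lists and without clone or predicted names, the highest ratios with a whole interval past the limit were those of Sfrp5, Lincmd1, Kif1a, Lrrc55, Lrrn1, Fads6, Klhl38 and Scel, between 5.16 and 11.1. All of these but Lrrn1 had under 50 normalized counts in ScxHt and passed the minimum through Dicer cKO alone. Sfrp5, a secreted inhibitor of Wnt signals, had 9 reads in ScxHt and 91 in Dicer cKO, beside 12 in Control, a ratio of 11.1 (5.62 to 25.1). Lincmd1, a noncoding RNA of muscle differentiation that holds the hairpin of miR-133b, had 51 reads in ScxHt and 286 in Dicer cKO, beside 383 in Control, a ratio of 6.18 (4.57 to 8.50). Lrrn1, a membrane protein with leucine-rich repeats, had 128 reads in ScxHt and 662 in Dicer cKO, beside 427 in Control, a ratio of 5.70 (4.71 to 6.94). In Sfrp5 and Kif1a Dicer cKO was above both other libraries, whereas in Lincmd1 ScxHt was below both.

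The lowest ratio of all analysed features was that of Htra4 (chr8:25024929-25038962), a secreted serine protease, with 506 reads in ScxHt and 34 in Dicer cKO, beside 385 in Control, and a ratio of 0.0740 (0.0507 to 0.105). Myoc, myocilin, had 4695 reads in ScxHt and 659 in Dicer cKO, beside 2235 in Control, a ratio of 0.155 (0.142 to 0.168). Coch, cochlin, had 161 reads in ScxHt and 19 in Dicer cKO, beside 111 in Control, a ratio of 0.130 (0.0763 to 0.210), and the membrane proteins Igsf8 and Ptpro had 0.127 (0.0692 to 0.218) and 0.131 (0.0678 to 0.234). Epsti1 was at 0.115 (0.0533 to 0.220), Cytip, a protein of leukocytes, at 0.205 (0.119 to 0.337), and the platelet chemokine Pf4 at 0.223 (0.126 to 0.373). For Htra4, Igsf8, Coch and Ptpro the Dicer cKO count was below both other libraries. For the receptor Npy2r, with 189 reads in ScxHt and 39 in Dicer cKO, beside 40 in Control, and for Cyp1b1, with 138 reads in ScxHt and 30 in Dicer cKO, beside 48 in Control, it was ScxHt that stood apart, and their ratios were 0.227 (0.157 to 0.322) and 0.240 (0.156 to 0.358). Of the low genes named here, all but Myoc had under 50 normalized counts in Dicer cKO and passed the minimum through ScxHt alone. The 15 lowest also held a line whose symbol had been turned into a date, which cannot be assigned to a gene.

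In normalized counts, the largest gains after Ttn, mt-Co1, Neb, Acta1, mt-Nd5 and Myh2 were those of the clones RP23-81C12.1 and RP23-407K8.3, Xirp2 and Myh7. The largest losses were those of Col1a2, Col1a1, Sparc, Fmod, Fn1, Col3a1, Dcn, Thbs4, Malat1 and Bgn. Ttn gained 801296 normalized counts. Malat1, a nuclear noncoding RNA, was among them with 329165 reads in ScxHt and 267374 in Dicer cKO, beside 304013 in Control, and a ratio of 0.895 (0.890 to 0.8996). Acta1, skeletal actin, had 51113 reads in ScxHt and 130878 in Dicer cKO, beside 85448 in Control, a ratio of 2.82 (2.79 to 2.85).

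Per length, in the RPKM values that the authors deposited, read counts scaled to feature length and library depth, mt-Co1 stood at 6166 RPKM in ScxHt and 12943 in Dicer cKO. Col1a1 stood at 8948 and 6704 RPKM, Sparc at 6452 and 3763, and Acta1 at 2110 and 5696. In ScxHt the order of these levels was Col1a1, Sparc, mt-Co1 and Acta1, and in Dicer cKO it was mt-Co1, Col1a1, Acta1 and Sparc. The other places among the 10 highest went to the noncoding RNAs Rn7s1, Rn7s2 and Rn7sk and the predicted genes Gm47305, Gm47287 and Gm27694. By position, Gm47305 lies within Rn7s2, Gm47287 within Rn7s1 and Gm27694 within Malat1. Their reads may thus also be counted in the longer gene, and these places are not separate. Rn7s1 and Rn7s2, like Gm47305 and Gm47287, had nearly equal counts, so reads that fit both copies cannot be assigned to one.

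The calls were spread over the genome and over the range of counts. By chromosome, 5.73% to 9.27% of features on autosomes and the X chromosome were higher and 3.68% to 9.02% lower. In the lowest quintile by mean count 11.7% were higher and 9.22% lower, and in the highest quintile 8.30% and 6.09%. Lower calls were less frequent among long transcripts, 7.56% in the shortest and 2.84% in the longest quintile by length, and higher calls were 9.66% and 6.75%. Muscle transcripts such as Ttn and Neb are among the longest, and the part of length in the ratios was not tested.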

How the data were processed

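Total RNA of Achilles tendon was sequenced in 1 library per genotype, as paired-end reads per the study's methods. The authors trimmed adaptors, aligned the reads to GRCm38 (mm10) with TopHat and Bowtie2 and counted reads per feature with HTSeq (versions, annotation release and strand setting are not given in the sources used here). The deposited count table holds whole numbers, although 763 features in ScxHt and 605 in Dicer cKO have a count of 0 and an RPKM above 0, for a reason that was not tested. The deposited RPKM values of the authors were used for levels per length. In the table, 463 lines repeat an earlier one, and some symbols were turned into dates. Without strand, reads of overlapping genes cannot be told apart.

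Size factors of the 2 libraries (median of ratios) came from DESeq2 1.42.0 in R 4.3.3, and alternatives from edgeR 4.0.16. Ratios and exact (Clopper-Pearson) 95% intervals were computed with Python 3.11.15, numpy 2.4.6, pandas 2.3.3 and scipy 1.17.1, and figures with matplotlib 3.10.9. No pseudocount was added. Each list was described by its calls and by the median log2 ratio over its analysed members. Named genes were Dicer1 and Scx, in each list the 2 with the highest count, the highest and the lowest ratio and members of counts of 5 or fewer, the 15 highest and 15 lowest ratios with a whole interval past the limits and no clone name, the 10 largest gains and losses, and the 10 highest RPKM values. Lox, Col2a1, Col14a1, Col8a2, S100b, Ngfr, the genes given below the minimum and those marked in the text were chosen after their values were seen. Members and lists were chosen with earlier results of these data known. Positions were taken from GENCODE vM21 by symbol (84.6% of analysed features), and miRNA sequences from RefSeq. A few genes of the lists were left out and are not reported here. Mature sequences of miR-143 and miR-145a were not used here. The ratio, interval and median steps were tested on simulated data.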

Additional observations from a re-analysis of the deposited data

How the results depend on the processing

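With 1 library per genotype, no library could be left out and no test across mice was possible. No paired analysis was possible because each genotype had 1 library. Counts of called features depended on the settings. The minimum mean count moved them to 2181 higher and 1553 lower at 10, to 521 and 384 at 200, and to 6012 and 5667 with no minimum. Ratio limits of 2 and 0.5 left 611 higher and 317 lower features, and the rule that the whole interval lie past the limits left 572 and 300. TMM scaling (1059 and 726), total counts (905 and 966), size factors of 3 libraries (1047 and 748), total counts without features above 1% of reads (1000 and 822), a pseudocount of 1 (1030 and 753) and dropping repeated lines (1031 and 767) moved them by less than 1.5 times. No scaling moved the median log2 ratio of all features by more than 0.1. Some list medians changed sign: adipocyte genes with TMM (0.0128) and with size factors of 3 libraries (0.00527), tendon transcription factors with total counts (-0.00142) and a minimum of 200 (-0.297), and histones with a minimum of 200 (-0.0390). Car3 (0.982) and Hsp90ab1 (0.985) fell below 1 with total counts. The cause was not tested. Over all lists and alternatives, 302 medians moved by less than 0.1 on the log2 scale without a change of sign, 22 moved by more and 5 changed sign as given above. Over all named genes and alternatives, 932 ratios stayed within their counting interval, 101 did not, and 2 passed to the other side of 1.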
